A study of Mus musculus with 4 samples.

Results

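The erythropoietin receptor and 9 transcription regulators of the red cell lineage (Epor, Gata1, Klf1, Nfe2, Zfpm1, Tal1, Lmo2, Ldb1, Gfi1b and Bcl11a) were examined in BCR-ABL-expressing leukemia stem cells with and without Hif1a. The genes were chosen by name, with earlier results of these data known. Each was represented by its probe set with the highest mean among those that map to 1 gene symbol. All 10 were measured, each by 1 probe set, among 19938 genes in all. The samples were 2 of Hif1a-/- and 2 of WT origin, each on 1 Affymetrix whole-transcript array.

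Both groups came from the same mouse model of chronic myeloid leukemia. Donors of the C57BL/6 (B6) strain, either Hif1a-/- or WT, received 5-fluorouracil, a drug that kills cycling cells, before their marrow was infected with a BCR-ABL/GFP retrovirus and transplanted into B6 recipients with Hif1a intact. Cells were sorted 14 days later from recipient marrow as GFP+Lin-c-Kit+Sca-1+, and the labels give an age of 8 weeks. The sources used here do not give which exons of Hif1a are deleted, what drove the deletion or whether animals were pooled. The labels name biological replicates but no separate animals, so the p-values below reflect only how much these samples vary, which may be technical. Because the sort keeps a mixture of progenitors, more cells of a type and more RNA per cell cannot be told apart.

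Erythropoietin acts on committed red cell progenitors through its receptor, which signals by JAK2 and STAT5 and keeps these cells alive. GATA1 binds DNA with its cofactor FOG1 (encoded by Zfpm1) and joins the complex of TAL1, LMO2 and LDB1 at the regulatory elements of red cell genes, while KLF1 activates globin and membrane genes. GFI1B and BCL11A are repressors in the same lineage, and several of these factors, among them TAL1, LMO2 and BCL11A, are also used by stem, mast or lymphoid cells. The kidney's gene for the hormone erythropoietin is a known target of hypoxia-inducible factors.

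The promoters of Epor, Klf1 and Gfi1b are shown because these 3 members had an unadjusted limma p under 0.05 between genotypes. Each run is the 250 bases before the RefSeq transcription start on the strand of the gene, in build GRCm38.p6. Capitals mark matches, on either strand, to the GATA motifs AGATAA and TGATAA and to the CACC-box motif CCNCNCCC of KLF factors.
Epor, chr9:21963577-21963826, minus strand: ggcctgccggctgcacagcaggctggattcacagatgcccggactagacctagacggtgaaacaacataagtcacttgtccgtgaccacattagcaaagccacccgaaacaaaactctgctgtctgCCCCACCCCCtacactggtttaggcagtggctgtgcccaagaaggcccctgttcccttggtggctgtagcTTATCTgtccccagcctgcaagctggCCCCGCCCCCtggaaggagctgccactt
Klf1, chr8:84901732-84901981, plus strand: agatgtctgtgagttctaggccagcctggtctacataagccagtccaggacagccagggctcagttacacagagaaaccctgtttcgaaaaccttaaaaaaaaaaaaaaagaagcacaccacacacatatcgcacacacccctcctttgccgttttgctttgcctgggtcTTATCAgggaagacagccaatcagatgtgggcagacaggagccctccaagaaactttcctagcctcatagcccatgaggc
Gfi1b, chr2:28621983-28622232, minus strand: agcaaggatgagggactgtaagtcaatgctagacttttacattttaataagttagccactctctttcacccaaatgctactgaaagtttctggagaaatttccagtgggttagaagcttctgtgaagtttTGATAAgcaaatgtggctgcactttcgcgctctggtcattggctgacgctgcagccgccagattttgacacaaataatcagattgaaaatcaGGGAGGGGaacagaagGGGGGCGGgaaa
Each of the 3 windows held 1 GATA motif, which ended 49 bases before the start in Epor, 75 before it in Klf1 and 115 before it in Gfi1b. CACC-box matches were found in the windows of Epor and Gfi1b, where those of Epor overlap in pairs, and not in that of Klf1. The motif also matches stretches without the letters CACC, and of those marked only CCCCACCCCC in Epor spells CACC. The letters CACC also occur unmarked in each of the 3 windows, where the bases around them do not match the motif. RefSeq gave 11 promoters for 8 of the members. A GATA motif was held by 5 of the 11 promoters, 1 each of Epor, Klf1, Gfi1b, Tal1 and Ldb1. A CACC-box match was held by 9 of the 11. Among all 32851 promoters in the table, 16.6% held a GATA motif of either form and 45.9% a CACC-box match. The core hypoxia response motif ACGTG, which 16.6% of all promoters held, was found in 2 of the 11, 1 each of Bcl11a and Ldb1, and in no promoter of the other 6 members. The E-box form CAGNTG, bound by TAL1 dimers, was found in 3 of the 11, for Epor, Klf1 and Ldb1 (44.8% of all promoters). The STAT motif TTCNNNGAA was found in 2 of the 11, for Bcl11a and Gfi1b (7.02%), and the NF-E2 motif TGANTCA in 0 of the 11 (6.75%). A match describes the letters of the window and is not evidence of binding.

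No single gene of the series passed an adjusted limma p of 0.05 between Hif1a-/- and WT cells (0 of 19938, 0% of genes), with 334 genes at an unadjusted p under 0.05. The members therefore had adjusted p of 0.999 each, and their values are given as measurements with intervals. Hif1a itself read 11.25 and 11.39 on the Hif1a-/- arrays and 11.34 and 11.50 on the WT arrays, so its probe set does not separate the genotypes. The arrays of WT origin differed more from each other than the Hif1a-/- pair, with a root mean square difference between replicates of 0.355 over all genes in WT and 0.187 in Hif1a-/- cells. The sorted marker Kit, named after its values were seen, read between 10.61 and 10.95 in Hif1a-/- and between 10.32 and 11.07 in WT cells, while Ly6a, which encodes Sca-1, lacked a probe set of its own and was not analysed here.

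Of the 10 members, 9 had a higher mean in Hif1a-/- than in WT cells, and Nfe2 a lower one. Of all genes tested, 61.4% had a higher mean in Hif1a-/- cells, a share that applies to each list below. In 5 of them (Epor, Gfi1b, Klf1, Zfpm1 and Bcl11a) every Hif1a-/- value exceeded every WT value, as it did in 15.7% of all genes, and in 0 every Hif1a-/- value was below, as in 9.05% of all genes. The median difference over the members was 0.28 on the log2 scale, against 0.034 over all genes tested. The members and the lists below were chosen with earlier results of these data known. Comparisons with all genes therefore describe these genes and are not an independent test of them. An unadjusted limma p under 0.05 with a higher mean was found for 3 members (Epor, Gfi1b and Klf1) and for 0.697% of all genes, and one with a lower mean for 0 members and 0.978% of all genes. The count of 3 fell with either Hif1a-/- array left out and rose without WT replicate 2. The share of all genes at that threshold in those fits is not given here, so these shifts cannot be compared with it. The median difference over the members was 0.26 without Hif1a-/- replicate 1, 0.30 without Hif1a-/- replicate 2 and 0.35 without WT replicate 2. In the fit without WT replicate 2, Epor, Zfpm1, Lmo2 and Bcl11a passed an adjusted limma p of 0.05, as did 7.23% of all genes. Without WT replicate 1 the median difference over the members was 0.11.

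**Figure D1:**
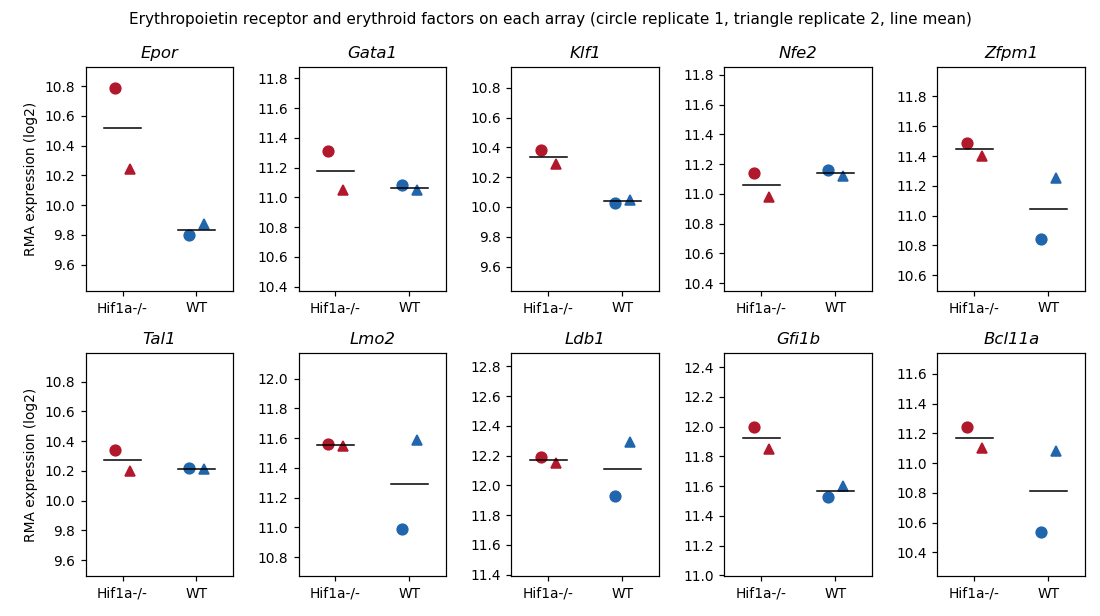
RMA log2 expression of each member on the 2 Hif1a-/- and the 2 WT arrays, with circles for replicate 1, triangles for replicate 2 and lines for the means. Every panel spans the same range on the log2 scale. Epor, Gfi1b, Klf1, Zfpm1 and Bcl11a have each Hif1a-/- point above each WT point, and Zfpm1, Lmo2, Ldb1 and Bcl11a have a low WT replicate 1.

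Epor had the largest difference of the members. It read 10.79 and 10.24 on the Hif1a-/- arrays, against 9.80 and 9.87 on the WT arrays. Both Hif1a-/- samples lay above both WT samples, and the 2 Hif1a-/- samples were further apart (0.55) than the WT samples (0.071). Means were 10.52 ± 0.39 in Hif1a-/- and 9.84 ± 0.05 in WT cells (SD, n = 2 each), a 1.60-fold difference. On the log2 scale the difference was 0.68 (95% interval 0.21 to 1.15). Its unadjusted limma p of 0.0115 was the 78th smallest of all genes, and 0.110% of genes had a larger positive difference. The Hif1a-/- arrays were apart by at least as much as for Epor in 1.05% of all genes, and without Hif1a-/- replicate 1 the difference of Epor was 0.41.

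The lineage's principal DNA-binding activators differed in size. Klf1 read 10.38 and 10.29 in Hif1a-/- cells and 10.03 and 10.05 in WT cells, with replicates of each genotype within 0.089 of each other and no overlap. Its difference was 0.29 (95% interval 0.00091 to 0.59), at an unadjusted limma p of 0.0495. Gata1 read 11.31 and 11.05 in Hif1a-/- cells, against 11.08 and 11.05 in WT cells. The groups overlapped, since Hif1a-/- replicate 2 lay at the level of the WT arrays. The difference of Gata1 was 0.12 with a 95% interval from -0.22 to 0.45, and -0.010 without Hif1a-/- replicate 1. Zfpm1, the cofactor that GATA1 needs in red cell and megakaryocyte precursors, read 11.49 and 11.40 in Hif1a-/- cells and 10.84 and 11.25 in WT cells. Its groups did not overlap, but WT replicate 2 lay nearer to the Hif1a-/- arrays than to WT replicate 1. The difference of Zfpm1 was 0.40 (95% interval -0.0045 to 0.80), at an unadjusted limma p of 0.0519. Leaving out WT replicate 1 gave 0.19.

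The 3 genes of the TAL1 complex did not separate the genotypes. Tal1, the helix-loop-helix subunit, read 10.34 and 10.20 in Hif1a-/- and 10.22 and 10.21 in WT cells, a difference of 0.061 with a 95% interval from -0.24 to 0.36. Lmo2, the LIM protein that bridges the subunits, read 11.56 and 11.55 in Hif1a-/- and 10.99 and 11.59 in WT cells. The difference of Lmo2 was 0.26 with all arrays and -0.037 without WT replicate 1, which was the lone low sample. Ldb1, the scaffold through which distant DNA elements are looped together, read 12.19 and 12.15 in Hif1a-/- and 11.93 and 12.29 in WT cells, so that both Hif1a-/- arrays lay between the WT arrays. Its difference was 0.059, with a 95% interval from -0.32 to 0.44, and -0.12 without WT replicate 1.

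Both repressors read higher in Hif1a-/- cells. Gfi1b, a zinc finger repressor required for red cell and platelet formation, read 12.00 and 11.85 in Hif1a-/- and 11.53 and 11.60 in WT cells. The Hif1a-/- arrays were 0.15 apart, the WT arrays 0.077, and the groups did not overlap. Means were 11.92 ± 0.10 in Hif1a-/- and 11.57 ± 0.05 in WT cells (SD, n = 2 each), a difference of 0.36 (95% interval 0.051 to 0.67) at an unadjusted limma p of 0.0288. Bcl11a, which silences embryonic globin genes in adult red cells and is also needed by B cells, read 11.24 and 11.10 in Hif1a-/- and 10.54 and 11.08 in WT cells. The lower Hif1a-/- array and the higher WT array of Bcl11a were almost level. Its difference of 0.36 had a 95% interval from -0.11 to 0.84, and it was 0.093 without WT replicate 1. The remaining member, Nfe2, the larger subunit of the NF-E2 activator of globin and platelet genes, read 11.14 and 10.98 in Hif1a-/- and 11.16 and 11.12 in WT cells. Both Hif1a-/- arrays were within or below the WT range, with a difference of -0.080 and a 95% interval from -0.39 to 0.23.

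**Figure D2:**
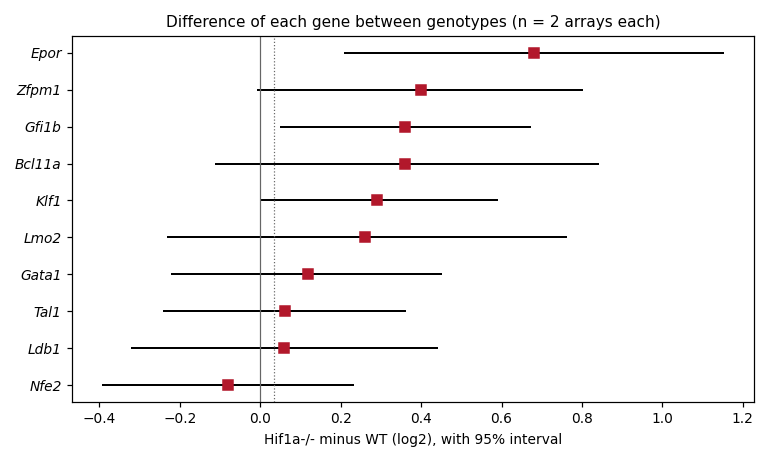
Difference in RMA log2 expression, Hif1a-/- minus WT, of each member with its 95% interval from the limma fit over all genes (n = 2 arrays per genotype). The solid line marks 0 and the dotted line the median of all genes, 0.034. The intervals of Epor, Gfi1b and Klf1 lie above 0, and those of the other 7 include 0.

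The members varied between arrays in 2 ways. In Epor, Gata1, Klf1, Nfe2, Tal1 and Gfi1b the WT arrays were within 0.1 of each other, whereas in Zfpm1, Lmo2, Ldb1 and Bcl11a WT replicate 1 lay 0.41, 0.60, 0.36 and 0.54 below WT replicate 2. The difference between genotypes of these 4 members was lowest without WT replicate 1 and highest without WT replicate 2. The list of 15 measured stem and progenitor genes stood in the same order on the WT arrays, with a median relative to each gene's own mean of -0.24 on WT replicate 1 and 0.27 on WT replicate 2, beside -0.022 and 0.043 on the Hif1a-/- arrays, and its part in the values of these 4 members was not tested. All 10 members read higher on Hif1a-/- replicate 1 than on Hif1a-/- replicate 2, by between 0.0077 for Lmo2 and 0.55 for Epor. With each array left out in turn, 5 members (Epor, Gfi1b, Klf1, Zfpm1 and Bcl11a) kept a higher mean in Hif1a-/- cells in every case. This was fixed in advance, because the groups of these members do not overlap.

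**Figure D3:**
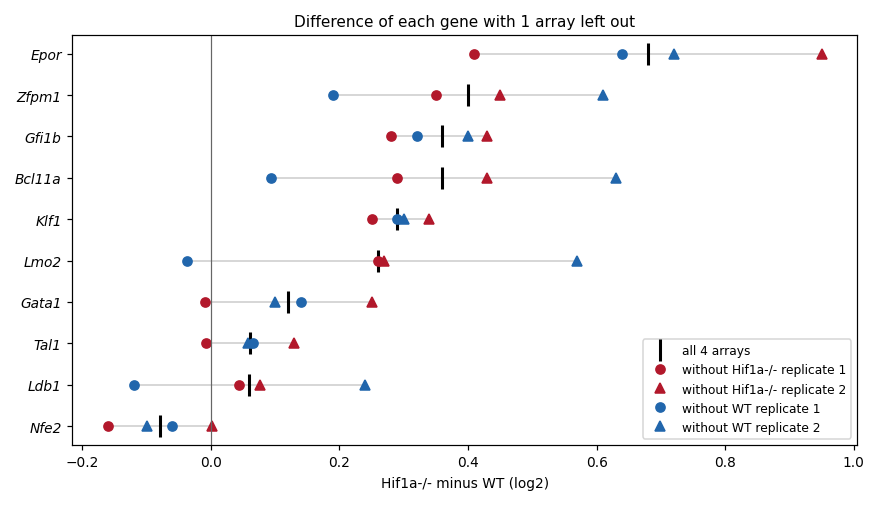
Difference in RMA log2 expression, Hif1a-/- minus WT, of each member with all 4 arrays (black bar) and with 1 array left out (red for a Hif1a-/- array, blue for a WT array, circle for replicate 1 and triangle for replicate 2). Epor spans 0.41 to 0.95, while Lmo2 and Ldb1 lie below 0 without WT replicate 1.

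The effector genes of the red cell, which lie downstream of these factors, had mostly higher means in Hif1a-/- cells. Of 49 genes on this list of hemoglobin, heme, membrane and skeleton genes, 39 were measured, and the adult globin genes were among the 10 without a probe set of their own, which were not analysed here. Means were higher in 36, beside 61.4% of all genes, and lower in 3 (Cd36, Hbb-bh1 and Xpo7). Every Hif1a-/- value exceeded every WT value in 22 and was below in 1, beside 15.7% and 9.05% of all genes. With 1 array left out, the number of higher means was between 32 and 36. An unadjusted limma p under 0.05 was found for 12 with a higher and 1 with a lower mean, beside 0.697% and 0.978% of all genes, and 0 passed when adjusted over all genes. The count of 12 fell without Hif1a-/- replicate 1 and rose with any other array left out. The share of all genes in those fits is not given here, so these shifts cannot be compared with it. The median difference of the list was 0.31, against 0.034 over all genes. It was 0.20 without Hif1a-/- replicate 1, 0.41 without Hif1a-/- replicate 2, 0.30 without WT replicate 1 and 0.32 without WT replicate 2. Pklr, the pyruvate kinase of red cells and liver, read 11.50 and 10.99 in Hif1a-/- and 10.48 and 10.45 in WT cells, a difference of 0.78, or 0.52 without Hif1a-/- replicate 1. Cd36, a scavenger receptor of early erythroid and several other cell types, went the other way, at 7.49 and 7.51 in Hif1a-/- against 8.19 and 8.11 in WT cells. Carbonic anhydrase 1 (Car1), abundant from the colony-forming progenitor on, read 13.87 and 13.37 in Hif1a-/- against 13.26 and 12.84 in WT cells, a difference of 0.57, or 0.32 without Hif1a-/- replicate 1 and 0.36 without WT replicate 2. Hbb-bh1, Xpo7 and Car1 were named after their values were seen.

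Among 9959 other genes with a mean at or above the median of all genes, those whose 4 array values, taken from the gene's own mean, were closest to the pattern of Epor were Sptb, Pklr and Trnp1. The root mean square distances from Epor over 4 arrays were 0.0453, 0.0605 and 0.0656 on the log2 scale. Sptb, the beta spectrin of the red cell skeleton, read 10.06 and 9.59 in Hif1a-/- and 9.15 and 9.11 in WT cells, and its difference of 0.69 was 0.46 without Hif1a-/- replicate 1. For Gfi1b the closest genes were Tfrc, the transferrin receptor through which red cell precursors take up iron, at 0.0173, Fgfbp3 at 0.0282 and the predicted gene Gm10589 at 0.0452. For Klf1 they were Gm10589 at 0.0259, Coq9, of coenzyme Q synthesis, at 0.0303 and Slc25a38, a mitochondrial glycine carrier for heme synthesis, at 0.0366. These are likenesses over only 4 arrays.

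With all arrays, more genes of the erythropoietin signalling list had a lower than a higher mean in Hif1a-/- cells. Means were higher for 11 of 30 measured genes, beside 61.4% of all genes, and lower for 19. The groups did not overlap in 3 of the higher and 7 of the lower ones, beside 15.7% and 9.05% of all genes. The median difference was -0.086, and 0.013 without WT replicate 1. The count of 11 was 19 without WT replicate 1 and 7 without Hif1a-/- replicate 1. With all arrays an unadjusted limma p under 0.05 was found for 0 with a lower mean, beside 0.978% of all genes. One with a higher mean was found for 2, beside 0.697% of all genes. The first was Tfrc, at 11.50 and 11.38 in Hif1a-/- against 11.02 and 11.14 in WT cells. The second was Erfe, the hormone erythroferrone that erythroblasts release under erythropoietin. Erfe read 8.69 and 8.48 in Hif1a-/- against 8.31 and 8.15 in WT cells. Their differences of 0.36 and 0.35 were 0.30 and 0.25 without Hif1a-/- replicate 1. Gab1, an adaptor protein, differed by 0.28 with an unadjusted limma p of 0.0589. Of the 19 lower genes, Socs2 differed by -0.53 with overlapping groups (-0.16 without WT replicate 2). Cish differed by -0.29 without overlap (-0.14 without WT replicate 1). The receptor's kinase Jak2 read 11.21 and 11.11 in Hif1a-/- and 11.78 and 11.07 in WT cells, with overlapping groups. Jak2, Socs2 and Cish were named after their values were seen.

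Partners and co-repressors of the members, 34 genes that were all measured, had 18 higher and 16 lower means, beside 61.4% of all genes with a higher one. Without Hif1a-/- replicate 2 the higher means numbered 29. The median difference was 0.013, and 0 genes had an unadjusted limma p under 0.05, beside 0.697% of all genes with a higher and 0.978% with a lower mean. The groups did not overlap in 1 of the 34, beside 15.7% of all genes above and 9.05% below. This was Ssbp3, which encodes a protein that stabilises LDB1 (11.51 and 11.23 in Hif1a-/- against 11.16 and 11.16 in WT cells), and its difference of 0.21 was 0.066 without Hif1a-/- replicate 1. Klf3, a repressor that KLF1 induces, differed by 0.30 and E2f4, a cell cycle factor needed for red cell expansion, by 0.29, with overlapping groups, and these were 0.079 for Klf3 without Hif1a-/- replicate 1 and 0.084 for E2f4 without WT replicate 1. Gata2, which GATA1 replaces as red cell progenitors mature, read 13.03 and 12.94 in Hif1a-/- and 13.19 and 12.83 in WT cells, so its Hif1a-/- arrays lay between the WT arrays. Gata2 was named after its values were seen.

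**Figure D4:**
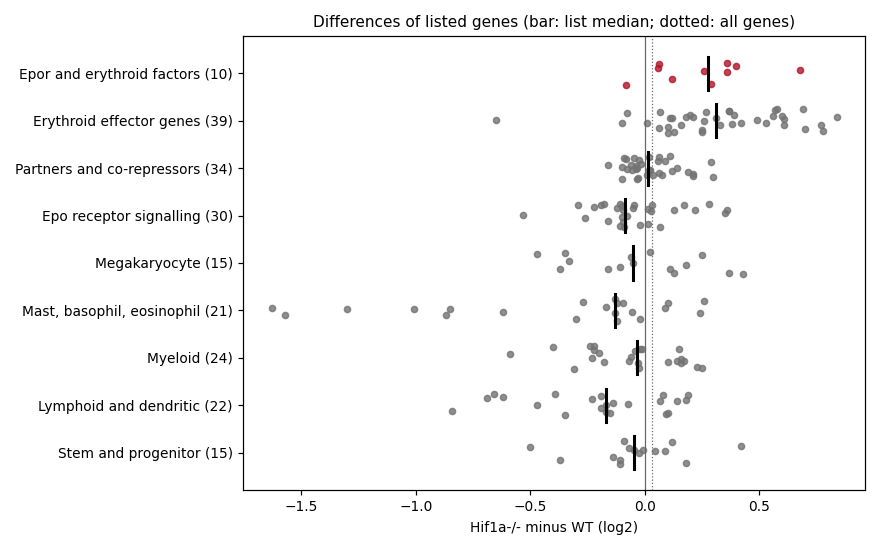
Difference in RMA log2 expression, Hif1a-/- minus WT, of the measured genes of each list, with the number of genes in brackets, 1 point per gene and a bar at the list's median. The dotted line marks the median of all genes. The medians of the erythropoietin receptor and erythroid factors (0.28) and of the erythroid effector genes (0.31) lie to the right of the other 7 list medians, which run from -0.17 to 0.013.

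GATA1, FOG1, TAL1 and GFI1B are also used outside the red cell lineage, so markers of the other cell types that a sort of progenitors can hold were set beside the members. Of 15 measured megakaryocyte genes 7 had a higher mean, beside 61.4% of all genes. The median difference of this list was -0.053, which was 0.12 without Hif1a-/- replicate 1. Gp5, a platelet surface glycoprotein, differed by 0.37 (0.22 without WT replicate 1), Mmrn1 by -0.47 (-0.17 without Hif1a-/- replicate 1) and Rab27b by -0.33 (-0.058 without WT replicate 2). Of 21 measured genes of mast cells, basophils and eosinophils 4 had a higher mean (9 without WT replicate 1). Every Hif1a-/- value was below every WT value in 5 and above in 1, beside 9.05% and 15.7% of all genes. An unadjusted limma p under 0.05 was found for 4 with a lower and 0 with a higher mean, beside 0.978% and 0.697% of all genes. The sum of the linear RMA values of these 21 genes was 71909 and 82043 on the Hif1a-/- arrays and 90648 and 82374 on the WT arrays. The mast cell proteases Mcpt4, Mcpt1 and Tpsb2 differed by -1.30, -1.57 and -0.87, and without Hif1a-/- replicate 1 by -0.90 for Mcpt1 and -0.45 for Tpsb2. The corresponding sum over the 39 erythroid effector genes was 71894 and 54788 on the Hif1a-/- arrays and 47410 and 45155 on the WT arrays. Hif1a-/- replicate 1, where Epor was highest, had the highest erythroid sum and the lowest sum of the combined mast cell, basophil and eosinophil list of the 4 arrays. Such a sum is weighted to the brightest genes. Relative to each gene's own mean, the erythroid effector list had a median of 0.27 on Hif1a-/- replicate 1 and 0.035 on Hif1a-/- replicate 2. Several genes of this list went the other way, among them Alas2 and Slc4a1. These read 8.46 and 9.19 on Hif1a-/- replicate 1 and 8.79 and 9.75 on Hif1a-/- replicate 2. Both were named after their values were seen. RMA gives no value of 0, so absence of a marker cannot be read from these data, and the part of cell composition in the values of the members was not tested.

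Myeloid and lymphoid fates are alternatives to the red cell fate. Of 24 measured myeloid regulators and granule genes the mean was higher for 8, beside 61.4% of all genes, and lower for 16. In 5 of the lower ones the groups did not overlap, beside 9.05% of all genes. The median difference was -0.036, which was 0.0020 without WT replicate 1 and -0.35 without WT replicate 2. The count of 8 was 12 without WT replicate 1 and 5 without WT replicate 2. Irf8, which directs monocyte and dendritic cell fate, differed by -0.59, the immediate early factor Egr2 by -0.40 and Cebpa, the granulocyte regulator, by -0.31, and without Hif1a-/- replicate 1 the last 2 gave -0.24 and -0.19. Spi1, whose product PU.1 and GATA1 restrain each other, read 12.00 and 12.04 in Hif1a-/- and 12.43 and 12.04 in WT cells, a difference of -0.22 with overlapping groups (-0.019 without WT replicate 1), and it was named after its values were seen. Of 22 measured lymphoid and dendritic genes 15 had a lower mean, with a median of -0.17 (-0.049 without WT replicate 1). Every Hif1a-/- value was below every WT value in 6 and above in 2, beside 9.05% and 15.7% of all genes. An unadjusted limma p under 0.05 was found for 3 with a lower and 0 with a higher mean, beside 0.978% and 0.697% of all genes. H2-Aa, a class II antigen-presenting chain, differed by -0.66. The lymphoid polymerase Dntt differed by -0.84 (-0.48 without Hif1a-/- replicate 2) and the dendritic integrin Itgax by -0.35. Of 15 measured stem and progenitor genes 5 had a higher mean (10 without WT replicate 2, 8 without Hif1a-/- replicate 1), with Erg at -0.50 (-0.32 without WT replicate 2). Slamf1 differed by 0.42 with overlapping groups and Tek by 0.18, and without WT replicate 1 these were -0.044 and 0.034.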

How the data were processed

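The authors deposited 1 table of log2 expression for 35556 probe sets on 4 arrays, made with Affymetrix Expression Console 1.1 and RMA per the submitters' processing notes; the sources used here give no further settings. RMA corrects background, equalises array distributions and draws small differences of dim genes together. The platform annotation named the probe sets (21789 with 1 symbol, 1621 with several, 12146 unnamed here), and the set with the highest mean represented each of 19938 genes. The Entrez numbers of 19856 were found in the RefSeq table of GRCm38.p6. Samples were grouped by title. Genotype was the only term in lmFit and eBayes of limma 3.58.1 (R 4.3.3) on all 4 arrays, with Benjamini-Hochberg adjustment over all genes at 0.05. The fit was checked on simulated data. Residual and prior degrees of freedom were 2 and 4.46, and a difference had a median standard error of 0.14. The smallest two-sided p that an exact permutation of 2 against 2 arrays allows is 0.333. The number of arrays limits the precision.

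The members and the 8 other gene lists were chosen with earlier results of these data known. Named genes were all members, Hif1a, the 3 genes with the smallest p in each list and the 3 closest in pattern to Epor and to each member with an unadjusted p under 0.05; any other is marked as chosen with its values in view. Replicate numbers were shared between genotypes, and whether samples with the same number were processed together is not given. Replicate deviations over genes correlated at -0.00719. The main fit used no pairing, and the replicate block was an alternative. Alternatives were 2 filters on dim genes, 2 normalizations, 2 variance models, 2 treatments of probe sets, the replicate block, other thresholds and each array left out; list counts, list medians and single genes of the lists without each array were added after seeing the data. Promoters came from RefSeq (GRCm38.p6).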

Additional observations from a re-analysis of the deposited data

How the results depend on the processing

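Every member kept its direction under the 2 normalizations. The filters, variance models, treatments of probe sets and replicate block leave the difference of a member unchanged, so its direction could not turn there. Under all these settings 0 members passed an adjusted p of 0.05. Leaving out 1 array turned 5 differences: -0.010 for Gata1 and -0.0079 for Tal1 without Hif1a-/- replicate 1, 0.00087 for Nfe2 without Hif1a-/- replicate 2, and -0.037 for Lmo2 and -0.12 for Ldb1 without WT replicate 1. The other ends of their ranges with 1 array left out were 0.25 for Gata1, 0.13 for Tal1, -0.16 for Nfe2, 0.57 for Lmo2 and 0.24 for Ldb1. Without WT replicate 2, where the spread comes from the Hif1a-/- pair alone and the lone WT array is assumed to vary like it, 4 members passed, in a fit that called 1442 genes (7.23%): Epor (0.72, adjusted limma p 0.0139), Zfpm1 (0.61, 0.00843), Lmo2 (0.57, 0.0123) and Bcl11a (0.63, 0.00660). Genes past the threshold numbered 0 with all arrays, 1 with a variance trend, 47 with the replicate block and between 2 and 1442 with 1 array left out, and 334 had an unadjusted p under 0.05. At an adjusted p of 0.10 there were 0. The count of members at an unadjusted p under 0.05 was 3 with all arrays, 2 with the 25th percentile filter, equal array medians, a variance trend, all probe sets or the replicate block, 4 with a second quantile normalization, 1 with the filter at the median and between 0 and 6 with 1 array left out. The count of members with groups that did not overlap was 4 with array medians set equal. With 1 array left out that count was between 5 and 7, where it could not fall, because groups without overlap stay apart. The median member difference was between 0.11 and 0.35 with 1 array left out. Hif1a kept its direction with each array left out.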
